A study of Drosophila melanogaster with 16 samples.

Results

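Of the 8069 peaks in the authors' deposited table, 269 were taken from 5 windows set next to a centromere or over the fourth chromosome of Drosophila melanogaster. These peaks were chosen by position alone, on the dm6 build: a peak midpoint from 22 Mb on 2L, from 23 Mb on 3L, below 5 Mb on 3R, from 22 Mb on X, or anywhere on chromosome 4. These limits are round coordinates and were not drawn from a chromatin map. The 2L window held 28 peaks, the 3L window 62, the 3R window 78, the X window 27 and chromosome 4 the other 74. The 7 peaks in or within 1000 bp of the lipid carrier gene apolpp on chromosome 4 were left out. The reference was the 6137 peaks on the rest of 2L, 3L, 3R and X. No window covers 2R next to its centromere, and the 1656 peaks on 2R and Y were in neither set.

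Pericentromeric DNA of the fly is packed as heterochromatin, in which repeats and transposon remnants are marked by methylated histone H3 lysine 9 and bound by the protein HP1a. The genes that lie in it are few, often have long introns filled with repeats, and many are transcribed in spite of their surroundings. Chromosome 4, the smallest autosome, mixes such packaging with active genes and carries a protein of its own, the chromosome-painting protein Pof. Heterochromatin is copied less than the chromosome arms in many polyploid fly tissues.

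The peaks come from ATAC-seq, in which a transposase cuts accessible DNA, on dissected adult fat body, the organ of fat storage and yolk protein secretion. All flies were w1118 virgin females kept for 25 days in their condition, and 25 flies went into each library. The 4 groups of 4 libraries (16 in all) were 25 °C with ethanol, 25 °C with S-methoprene, 11 °C with ethanol and 11 °C with S-methoprene. S-methoprene is a synthetic analog of juvenile hormone. It was given as vapour from 10 µL of a 39.4 mM solution every 2 days, and controls had the ethanol (99%) alone. Flies were picked by their ovaries, which were large in each group except 11 °C with ethanol, where they were regressed. The table compares the temperatures without stating the drug groups it used, so in its values temperature and ovary state cannot be told apart. The weight of the 25 °C libraries in each overall mean was 0.429, which 3 against 4 or 6 against 8 libraries would give. Some of the 8 libraries at 25 °C were thus left out of the table, and at 3 against 4 some at 11 °C as well. Which libraries and drug groups were used is not stated. Of 14 fat body marker genes 11 had a peak, among them the yolk protein genes Yp1, Yp2 and Yp3, and Fbp1, Fbp2 and Lsp1alpha had none. In such bulk tissue, fewer cells of a type and lower accessibility per cell cannot be told apart.

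Every value below is from the authors' deposited table or counted from it. Reads are normalised reads per peak of 401 bp, averaged over libraries, and fold changes are the authors' fitted values, 25 °C over 11 °C on the log2 scale. A peak was called when its DiffBind false discovery rate (FDR) over all 8069 peaks was under 0.05. The table gives no value per library, so no replicate spread stands beside a level and depth is unknown. Peaks are not replicates, so differences between the windows and the reference are descriptions, and those differences were not tested.

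Peaks were sparse over the windows as a whole and their median read number was below that of the arms, except in the 3R window. The authors' table held 15.0 peaks per Mb in the 4 windows off chromosome 4 and 58.2 per Mb on chromosome 4, against 65.2 per Mb in the reference. Genes were sparse too, with 27.9 and 89.6 per Mb against 144. Protein-coding genes were long on chromosome 4 and in the 3L window, with medians of 10090 bp and 9921 bp against 2158 bp in the reference, and short in the X window (1839 bp). Counted per gene, 44.3% of the 316 protein-coding genes in the windows had a peak within 500 bp of an end, against 47.6% in the reference, but the windows differed. The share was 58.8% on chromosome 4 and 56.8% in the 3L window, above the reference. It was lower than on the rest of the same arm in the 2L window (37.8% against 45.8%), the 3R window (39.8% against 48.0%) and the X window (28.8% against 50.1%), and 39.4% over all windows off chromosome 4.

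Accessibility, taken as reads per peak, had a median of 136 in the 269 peaks (quartiles 60.0 and 215) and 165 in the reference (97.9 and 260). The 3L window stood lowest, with a median of 61.7 and quartiles of 10.2 and 158. The 3R window stood highest, with a median of 186 against 165 on the rest of 3R. Of its 78 peaks, 65 lay between 4 and 5 Mb, at the end of the window next to the arm, which is as dense as the reference. The medians were 150 in the 2L window, 117 in the X window and 146 on chromosome 4. In the 3L window 61.3% of the peaks held under 100 reads, against 1595 of the 6137 reference peaks. The ranges between the quartiles overlapped that of the reference in every window, 3L included. The strongest peak of each window was at CG31522 on 3R (584 reads), between Tdg and Pur-alpha on chromosome 4 (425 reads), at Clamp on 2L (414 reads), at Usp2 on X (367 reads) and at l(3)80Fg on 3L (327 reads). Clamp encodes a zinc finger protein that binds GA repeats, Tdg a thymine DNA glycosylase and Usp2 a ubiquitin protease. None of these 5 peaks was called between temperatures.

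The low reads lay away from gene ends. Peaks with a midpoint within 500 bp of a gene end had a median of 184 reads in the windows and 179 in the reference, so the medians at gene ends were close to each other beside the centromeres and on the arms. Inside genes the medians were 88.2 and 142 reads, and between genes 19.7 and 108. Intergenic peaks made up 17.8% of the window peaks and 3.99% of the reference, and 35.5% in the 3L window. Gene-end peaks made up 52.4% and 62.7%, and gene-body peaks 29.7% and 33.3%. How the authors treated reads that match several places in the genome is not stated, and its part in these values was not tested.

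**Figure D1:**
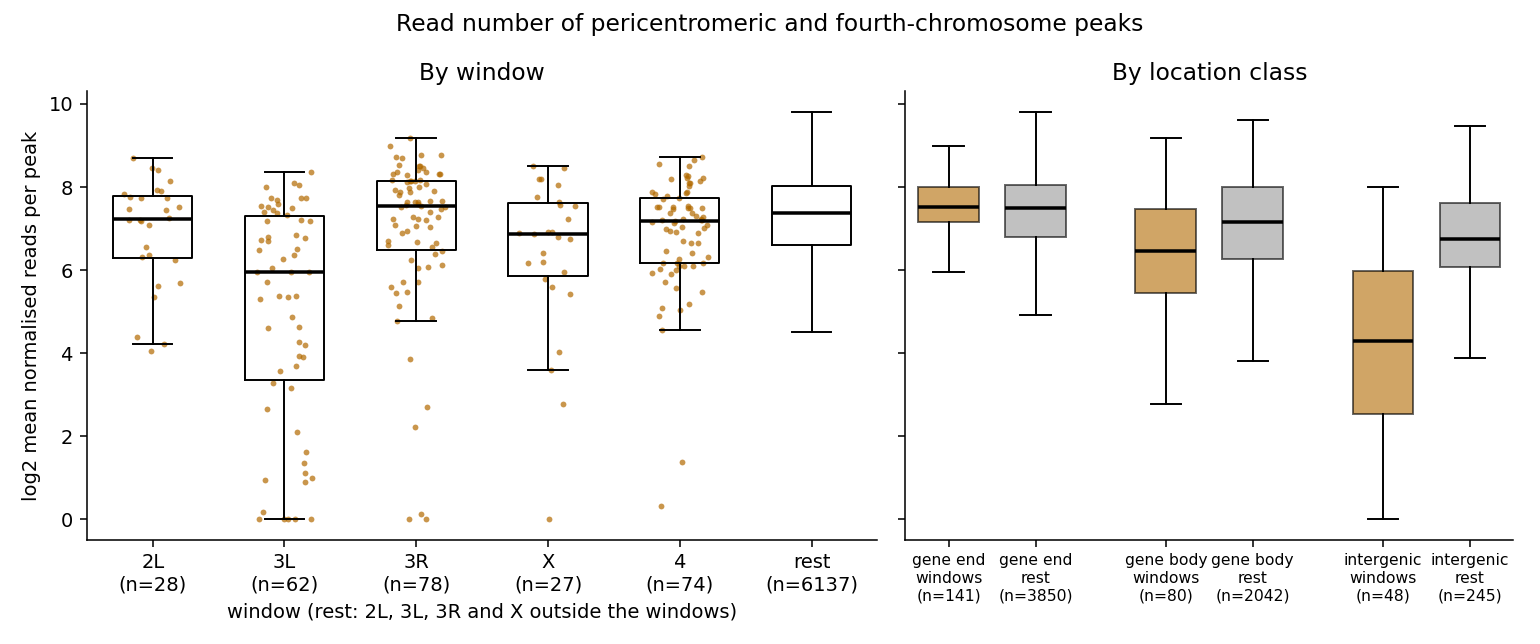
Log2 mean normalised reads per peak in each window and in the rest of 2L, 3L, 3R and X (left), and by location class in the windows (orange) and the rest (grey) (right). Boxes give median and quartiles, whiskers reach the last peak within 1.5 box lengths, points are single peaks; gene-end peaks have medians of 184 and 179 reads, while gene-body and intergenic peaks of the windows lie lower than their counterparts.

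At the bottom of the scale, 25 window peaks (9.29%) held under 10 reads, against 22 of the reference (0.358%), and 16 of the 25 were in the 3L window. The table lists 7 of them at a log2 concentration of 0 at both temperatures, which means 1 read or fewer. Among them is a peak within each of the genes Myo81F (an unconventional myosin), Pzl and lovit. None of the 25 was called, so no call rests on them.

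The temperature comparison concerns how accessibility in fat body of flies kept warm differs from that in the cold. The median window peak differed little between temperatures. The median of log2 reads at 25 °C minus log2 reads at 11 °C was 0.006 in the window peaks (quartiles -0.15 and 0.29) and -0.022 in the reference (-0.18 and 0.16). The difference was above 0 in 50.9% of the window peaks and in 45.8% of the reference. The upper quartiles lay further apart than the medians.

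By the authors' deposited FDR, 47 of the 269 peaks (17.5%) were called higher at 25 °C, against 11.8% of the reference and 12.2% of all 8069 peaks. Higher at 11 °C were 19 (7.06%), against 10.2% and 10.0%. In both directions together 24.5% were called, against 1349 of the 6137 reference peaks and 22.2% of the table. The windows thus held about as large a share of called peaks as the table, and 71.2% of the calls were higher at 25 °C, against 53.7% in the reference. Taken over all read numbers, calls were also larger. The median called log2 fold change was 0.76 against 0.50 at 25 °C and -0.61 against -0.39 at 11 °C. At 25 °C the 3R window was the exception, with 0.36 against 0.54 on the rest of 3R. At least 2-fold higher at 25 °C were 14 peaks (5.20%), against 1.35% of the reference and 1.54% of the table. At least 2-fold higher at 11 °C were 4 peaks (1.49%), against 0.619% and 0.632%. Of the 10 called peaks of the whole table with the largest fold change at 25 °C, 5 were in the windows, 2 at apolpp and 3 in the reference. The windows held 14 of the first 100, where they hold 269 of all 8069 peaks. Toward 11 °C they held 1 of the first 10 and 5 of the first 100.

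Calls higher at 25 °C were most frequent among weak peaks. In the quartile of the table with the fewest reads (97.4 or fewer) lay 39.0% of the window peaks and 24.7% of the reference. There 35 of 105 window peaks (33.3%) were higher at 25 °C and 5 were higher at 11 °C, against 23.5% and 8.10% of the reference. All 14 peaks at least 2-fold higher at 25 °C were in it. Of the other 164 window peaks 12 (7.32%) gained reads in the warm and 14 (8.54%) in the cold, against 7.95% and 10.9% of the reference. Above the lowest quartile the majority of calls thus turned in both sets, and the share higher at 25 °C was close to that of the reference. Warm calls were not larger there, with a median log2 fold change of 0.32 in the windows and 0.42 in the reference. The cold medians were -0.55 and -0.36. Bands of similar read number were compared for the share higher at 25 °C. It was 7 of 11 against 3 of 12 reference peaks from 10 to 20 reads, and 13 of 25 against 32.0% of the reference from 20 to 50 reads. From 50 to 100 reads it was 15 of 45 against 20.5%, and from 100 to 200 reads 7 of 84 against 10.8%. From 200 reads up it was 5 of 79 against 5.27%. Read number moves with these calls in both sets, and its part in them was not tested beyond these bands.

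**Figure D2:**
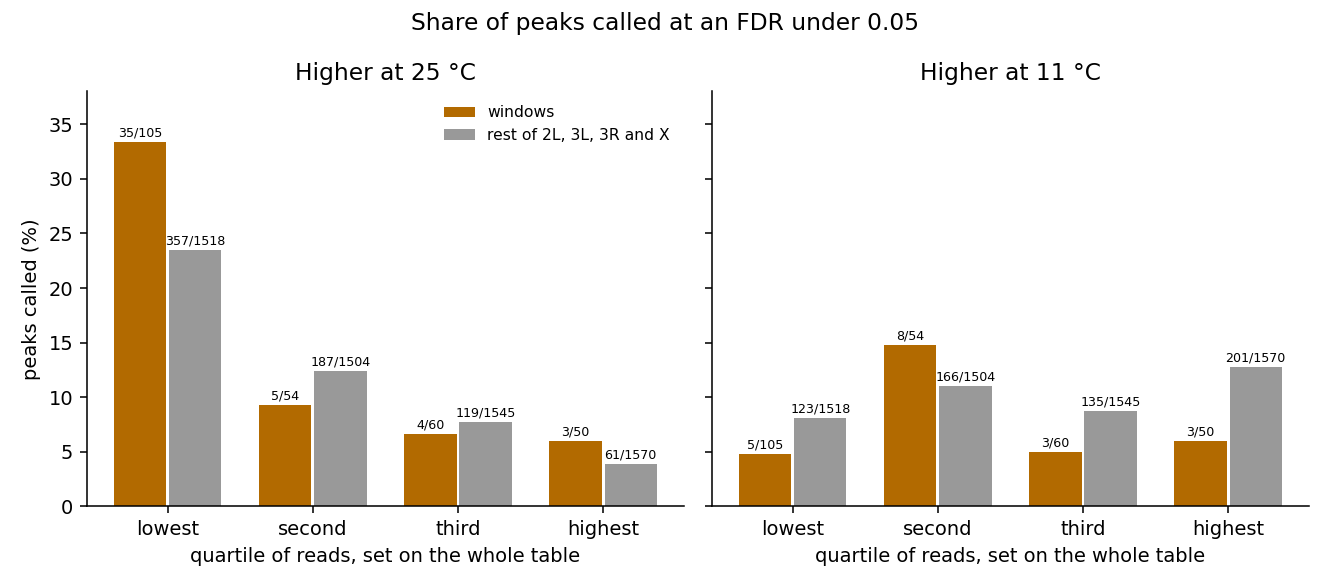
Share of peaks called higher at 25 °C (left) and at 11 °C (right) at an FDR under 0.05, in quartiles of reads set on the whole table, for the windows (orange) and the rest of 2L, 3L, 3R and X (grey); numbers over bars are called peaks over all peaks. In the lowest quartile 35 of 105 window peaks were higher at 25 °C.

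**Figure D3:**
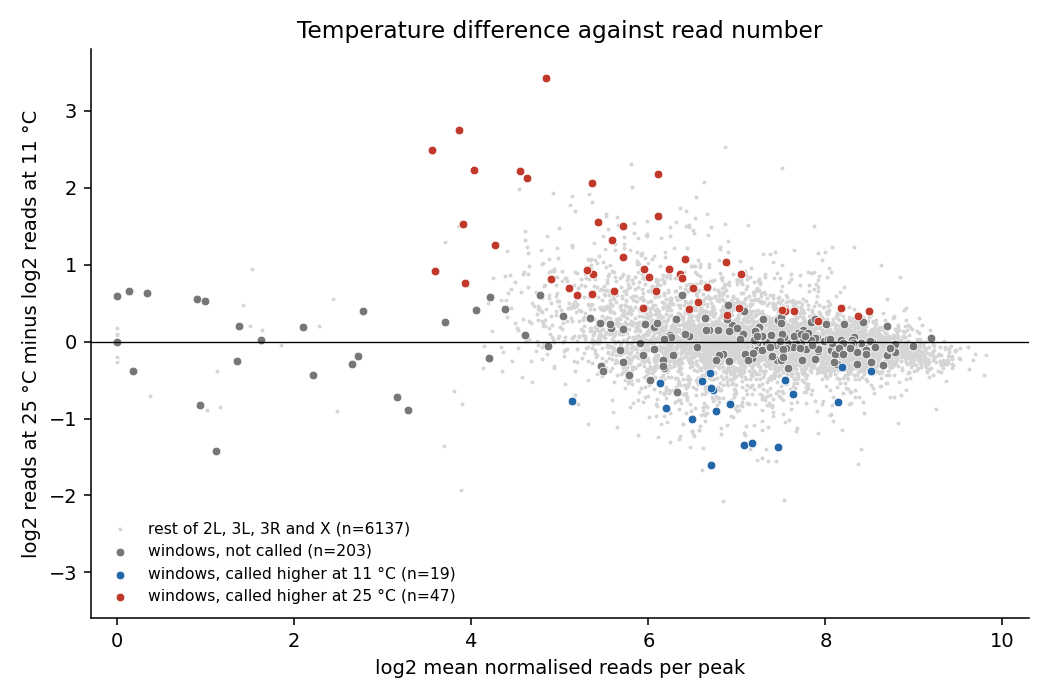
Log2 reads at 25 °C minus log2 reads at 11 °C against log2 mean reads for the 269 window peaks, coloured by the authors' call, over the 6137 reference peaks in light grey. Red points (47, higher at 25 °C) reach furthest from 0 at low reads, and the 19 blue points (higher at 11 °C) lie mostly at middle reads.

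The warm calls also lay mostly away from gene ends. Higher at 25 °C were 24 of 80 gene-body peaks (30.0%, reference 17.5%), 14 of 48 intergenic peaks (29.2%, reference 21.6%) and 9 of 141 gene-end peaks (6.38%, reference 8.16%). Higher at 11 °C were 10.0%, 10.4% and 4.26% of these classes, against 14.3%, 19.2% and 7.40%. Gene-body and intergenic peaks were also the weak ones: 51.2% and 87.5% of them were in the lowest quartile of reads, against 15.6% of gene-end peaks. In the reference the shares were 33.8%, 42.4% and 18.8%. Within that quartile the classes of the windows lay closer together. Higher at 25 °C there were 36.6% of gene-body, 33.3% of intergenic and 27.3% of gene-end peaks, against 29.2%, 29.8% and 17.2% of the reference.

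All 5 windows held calls in both directions. In the 3L window 14 (22.6%) were called in the warm direction and 4 (6.45%) in the cold one, against 11.6% and 10.4% on the rest of 3L. In the 3R window the counts were 13 (16.7%) and 5 (6.41%), against 12.8% and 8.78%, and 12 of the 13 came from the stretch between 4 and 5 Mb. On chromosome 4 they were 12 (16.2%) and 3 (4.05%), against 11.8% and 10.2% of the reference and 12.2% and 10.0% of the table. The X window had 5 calls (18.5%) in each direction, against 11.4% in each on the rest of X. The 2L window had 3 (10.7%) and 2 (7.14%), against 11.0% and 10.5%, so its share higher at 25 °C was near that of its arm. Of 16 pairs of neighbouring called peaks up to 20 kb apart, 12 had the same direction, as had 39 of the 61 pairs at any distance. Since 71.2% of the calls were higher at 25 °C, many pairs would agree wherever the calls lay. Pairs in the reference were not counted. The most called peaks in a row with a single direction were on 3R from MP1 to Ubc6 (chr3R:4307774-4948280), where 11 called peaks among 46 were all higher at 25 °C, with log2 fold changes of 0.21 to 0.76. MP1 encodes a protease of the melanization cascade and Ubc6 a ubiquitin-conjugating enzyme. This stretch was picked after its values were seen, and its single direction follows from how such a row was chosen. Calls were about as frequent in it as elsewhere, since 22.2% of all 8069 peaks were called in either direction. The stretch lies between 4 and 5 Mb, at the end of the window next to the arm, where peaks are as dense as in the reference.

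The largest warm gains on 3R lay far from any annotated gene. The peak at chr3R:3975095-3975495 held 59.6 reads at 25 °C and 5.52 at 11 °C, a log2 fold change of 3.26 (FDR 3.92e-31). Its nearest gene, CG42402, ended 102644 bp away. A second peak between it and CG42402, at chr3R:4031729-4032129, held 28.3 and 4.22 reads, a log2 fold change of 2.46. No other peak lay between this pair, and no gene within 1000 bp of either is annotated. On X, the last 2 peaks of the window showed the same direction, with 29.6 against 6.31 reads and 16.5 against 8.74 reads (log2 fold changes 1.98 and 0.70). Their nearest annotated gene is a copy of mir-10404, a microRNA gene known from the ribosomal RNA repeats, and it lay 71365 and 30082 bp away. On 3L, 2 peaks before the pseudogene CR40354 were higher at 25 °C as well, and the stronger change was 73.0 against 17.5 reads at chr3L:25196520-25196920 (log2 fold change 1.94).

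Inside genes, the histamine transporter gene lovit (a vesicular carrier of photoreceptors that spans 434041 bp) held 3 peaks, of which 2 were called. At chr3L:25256205-25256605 reads were 44.4 at 25 °C and 10.2 at 11 °C (log2 fold change 2.05, FDR 1.56e-16). About 3 kb before it they were 28.9 and 12.1 (log2 fold change 1.11). The third peak of lovit was listed at 1 read or fewer. FASN3, a fatty acid synthase gene of the same window, is named after its values were seen. It had a peak 597 bp outside the gene with 85.0 reads at 25 °C and 44.3 at 11 °C, and a peak inside with 75.6 and 35.1 (log2 fold changes 0.82 and 0.92). In the 2L window the largest gains were smaller, at CG42748 (111 and 60.0 reads, 0.82) and 4929 bp from lncRNA:CR43242 (104 and 54.0 reads, 0.88). The peak within CG40470, on 3L, held 22.3 and 3.95 reads (log2 fold change 2.06). The called peaks of lovit, FASN3 and CG40470 were below the lower quartile of the table even at 25 °C.

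On chromosome 4 a called peak could stand beside a gene-end peak that was not called. The peak inside eIF4G1, which encodes the scaffold of the cap-binding translation initiation complex, held 124 reads at 25 °C and 27.5 at 11 °C (chr4:922510-922910, log2 fold change 2.08, FDR 4.97e-29). The other peak of eIF4G1, 68 bp from a gene end, held 106 and 95.7 reads (log2 fold change 0.05, FDR 0.73). The calcium and calmodulin-dependent kinase gene CaMKII showed the reverse arrangement. Its peak 98 bp from a gene end held 83.5 and 29.4 reads (log2 fold change 1.45, FDR 2.10e-15), while its gene-body peak held 60.3 and 94.7 reads and was not called (log2 fold change -0.25, FDR 0.152). CG11360 held 42.4 and 9.12 reads (log2 fold change 1.84). Near the antisense RNA gene asRNA:CR45126 a peak held 112 and 36.2 reads (log2 fold change 1.58), and its neighbour at Taf3, which encodes a subunit of the general transcription factor TFIID, held 45.4 and 29.8 reads (log2 fold change 0.48).

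In some genes peaks went both ways. Within zfh2, a zinc finger homeodomain gene of chromosome 4, a peak held 86.3 reads at 25 °C and 48.0 at 11 °C (log2 fold change 0.76), and a peak about 3 kb away held 87.3 and 116 reads (log2 fold change -0.28). On X, 2 peaks in the overlapping genes CG42346 and fog were higher at 25 °C, with 69.2 against 23.5 and 73.0 against 29.2 reads (log2 fold changes 1.46 and 1.21). The peak at the end of fog, which encodes a secreted ligand for cell shape change in the embryo, was higher at 11 °C, with 151 against 214 reads (log2 fold change -0.41). Overlapping genes share these peaks, so which gene a peak belongs to is not known.

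**Figure D4:**
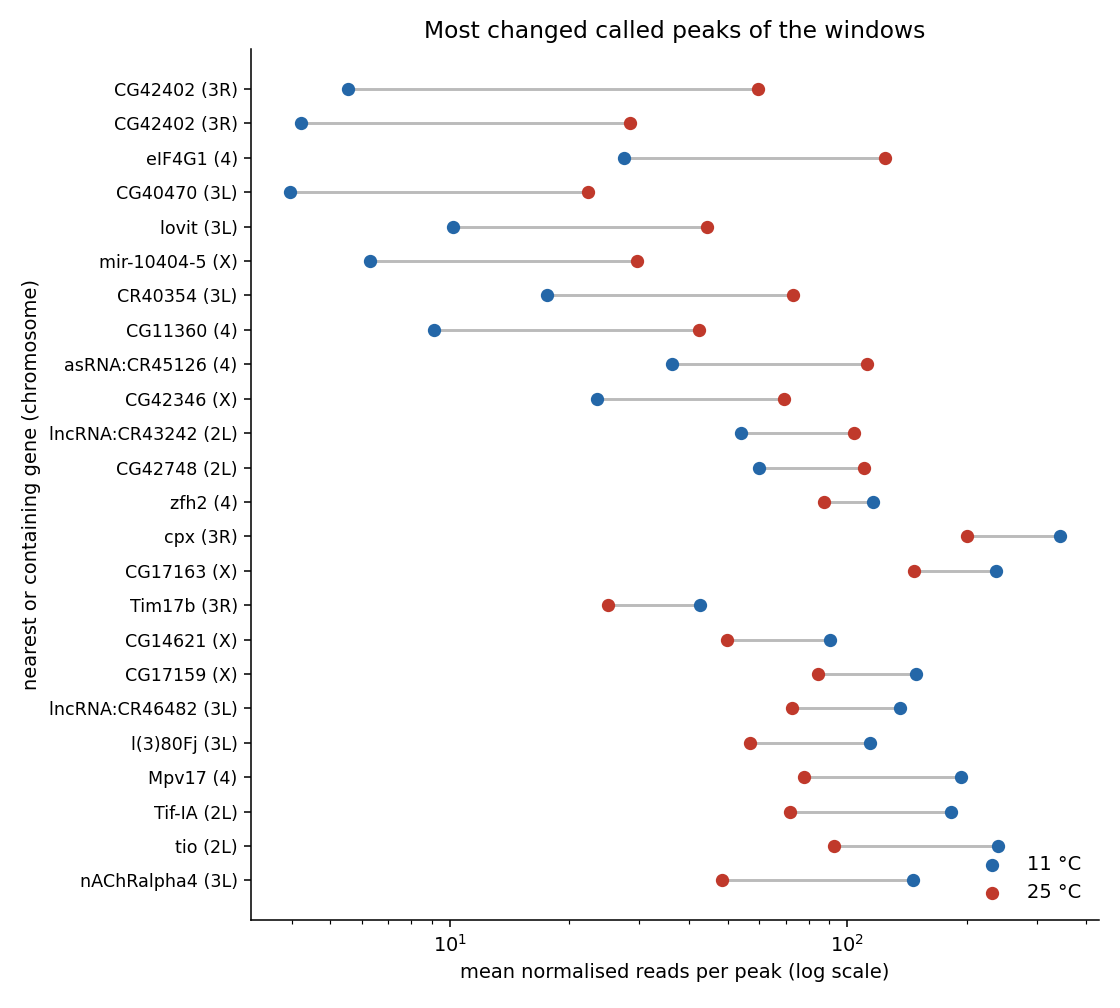
Mean normalised reads at 25 °C (red) and 11 °C (blue), on a log axis, of 24 called peaks: the 10 largest changes in each direction and the 2 largest of each window. The name is the containing or nearest gene with its chromosome; the peaks higher at 25 °C start at 3.95 to 60.0 reads at 11 °C.

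Of the 19 peaks higher at 11 °C, 5 lay in the lowest quartile of reads, against 35 of the 47 higher at 25 °C. The reference had a contrast in the same direction, with 123 of 625 and 357 of 724. The largest change was inside nAChRalpha4, a nicotinic acetylcholine receptor subunit gene, with 48.4 reads at 25 °C and 147 at 11 °C (log2 fold change -1.48, FDR 8.11e-16). The zinc finger gene tio held 92.7 and 240 reads (log2 fold change -1.32), and a peak 2976 bp from Tif-IA, an RNA polymerase I initiation factor gene, 71.8 and 183 reads (log2 fold change -1.27). Mpv17, a mitochondrial inner membrane protein gene on chromosome 4, held 77.7 and 193 reads (log2 fold change -1.19). These 4 were the only peaks of the windows at least 2-fold higher at 11 °C. On 3L, 2 more lay in the last part of the window, with 57.1 reads at 25 °C and 115 at 11 °C at a peak 78733 bp from l(3)80Fj, and 72.6 and 136 reads within lncRNA:CR46482 (log2 fold changes -0.88 and -0.80). On X the largest were at CG17159 (84.7 and 149 reads, -0.75) and CG14621, and CG17163 held 148 and 237 reads (-0.61). Other peaks lower at 25 °C were called at the exocytosis genes Snap25 (log2 fold change -0.49) and cpx (-0.50) and 2001 bp from Tim17b, a mitochondrial import gene (-0.65). The other peak of Snap25 (3.09 reads) was not called, and cpx had 1 call among 4 peaks. Of 3 peaks nearest to Jhbp1 and Jhbp2, genes named for juvenile hormone binding, 2 were called higher at 11 °C, with 78.2 against 112 reads and 55.6 against 80.6 reads (log2 fold changes -0.42 and -0.39). The third, at Jhbp1, held 47.0 and 56.6 reads and was not called (log2 fold change -0.16, FDR 0.203). The called peaks lay 2399 and 1542 bp from those genes, and Jhbp2 is named here after its value was seen.

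Genes long known from pericentromeric heterochromatin had calls at some peaks and none at others. Of 25 listed genes 20 had a peak, and those on 2R lie in no window. Among those on 2R, stum is placed far out on the arm (chr2R:21674901-21685000), so the list is not purely pericentromeric. The other 14 had 23 peaks in the windows, with 5 higher at 25 °C and 1 higher at 11 °C (against 12.2% and 10.0% of all peaks). The median log2 fold change of the 23 was 0.03, against 0.01 over the 269 and -0.01 in the reference. Their median was 90.9 reads. The peak at lt, a vesicle trafficking gene and a classic gene of 2L heterochromatin, held 137 reads at 25 °C and 152 at 11 °C (log2 fold change -0.06, FDR 0.657). The cohesin gene vtd (154 and 142 reads), the RNA helicase gene Dbp80 (146 and 146), the RNA cleavage factor gene su(f) (270 and 264), the ADP-ribose polymerase gene Parp1 (141 and 153) and the 3 peaks of the histone methyltransferase gene Set1 were not called either. The exceptions besides lovit and Snap25 were AGO3, a piRNA pathway gene (116 and 71.9 reads, log2 fold change 0.60), and 2 ribosomal protein genes. At RpL15 the called peak held 54.4 and 28.5 reads (log2 fold change 0.87), while its other peak, with 216 and 199 reads, was not called (FDR 0.553). At RpL5 the called peak held 61.8 and 39.1 reads (log2 fold change 0.58), and its other peak held 193 and 229 (FDR 0.306). At each of these ribosomal protein genes the weak peak was called and the strong one was not. The called peak of RpL15 lay outside the gene, within 1000 bp of its end.

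On chromosome 4 the housekeeping list had the most reads. Its 8 genes had 9 peaks at 7 of them, with a median of 220 reads and a median log2 fold change of -0.03, and the eIF4G1 peak above was the sole call. RpS3A, a ribosomal protein gene, held 177 and 182 reads at 25 and 11 °C, and ATPsynbeta, an ATP synthase subunit gene, 275 and 291. The developmental transcription factors had 10 peaks at 7 of 12 genes, with a median of 194 reads, and ey, toy, onecut, fd102C and NfI had none. Their 3 calls were those at zfh2 and a peak at ci, the effector of Hedgehog signalling, with 312 and 406 reads (log2 fold change -0.27, FDR 0.0207). The signalling and adhesion list had 25 peaks in the windows at 18 of 23 genes, with a median of 145 reads. Of these, 4 were higher at 25 °C and none was higher at 11 °C by the authors' FDR, where the table's shares are 12.2% and 10.0%. Besides CaMKII they were at Syt7, a calcium sensor of vesicle fusion (122 and 57.9 reads, log2 fold change 0.87), PMCA, the plasma membrane calcium pump (39.7 and 22.5 reads, 0.67) and the activin ligand gene Actbeta (103 and 77.1 reads, 0.31). Of the 3 peaks of PMCA the weakest was the one called.

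The listed genes of heterochromatin proteins all lie outside the windows, so none of their peaks could be a window peak. Of 37 such genes 35 had a peak, 53 in all, with 3 higher at 25 °C and 6 higher at 11 °C (against 12.2% and 10.0% of all peaks) and a median log2 fold change of 0.00. The peak at the gene of HP1a held 190 reads at 25 °C and 168 at 11 °C and was not called (log2 fold change 0.12, FDR 0.298). The histone methyltransferase genes Su(var)3-9 (289 and 284 reads) and egg, and Pof (261 and 273 reads), were not called either. Higher at 11 °C were wde, a cofactor of egg, with 125 and 191 reads (log2 fold change -0.56), stwl with 365 and 493 reads (-0.39) and the insulator gene mod(mdg4) with 215 and 280 reads (-0.29). The gene ocm had a peak in each direction (-0.44 and 0.28). The other calls higher at 25 °C were at Hers (log2 fold change 0.23, FDR 0.0436) and Dp1 (0.20, FDR 0.0485).

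At the limits on 2L and X, the nearest peaks on both sides were called higher at 11 °C, and on 3L and 3R they did not share a call. On 2L the first peak inside, 24637 bp from the limit, was that of tio, and the last one outside, near CG11629, was also higher at 11 °C, with 78.2 and 178 reads (log2 fold change -1.13). On 3R the peaks on both sides were near plh, with log2 fold changes of 0.07 inside and -0.01 outside. On 3L the first peak inside, near the ribosomal protein gene RpL10, was higher at 25 °C (72.3 and 53.6 reads, log2 fold change 0.33), and the last one outside, near CG32457, was not called (-0.08). On X the first peak inside lay 444195 bp from the limit, at CG14621 (49.9 and 90.8 reads, log2 fold change -0.70). The last one outside was at flamenco (lncRNA:flam), a locus known for piRNAs against transposons, with 6.83 and 17.5 reads (log2 fold change -0.84).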

How the data were processed

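Per the submitters' processing notes, bedtools, Bowtie2, cutadapt, DiffBind, FastQC, MACS2, Picard, SAMtools and Trim Galore were used on the dm6 build, without versions, roles or order. Transposase shift, duplicates, multiply mapped reads and scaling are not given in the sources used here, and multiply mapped reads can change values in repeats. Per the file headers, the authors' deposited table gives log2 mean normalised reads per peak over all libraries used and per temperature, a log2 fold change, and a p-value with its FDR. No value per library was analysed, so no model was refitted, and the drug comparison was not analysed here.

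Reads are 2 to the power of the deposited log2 value. Peaks were placed with the RefSeq gene table of Release 6 plus ISO1 MT, which has gene ends but no strand or exons: gene end (midpoint within 500 bp of either end), gene body or intergenic. A peak took each gene holding its midpoint or ending within 1000 bp (88 window peaks had several, and 41 had none and took the nearest). Peaks were named by rule (in each direction, the 10 called ones with the largest fold change, and per window the 2 largest and the strongest, the peaks at the window limits and called list genes), and others were named after their values were seen. Windows, members and lists were chosen with earlier results of these data known. The deposited FDR equals a Benjamini-Hochberg adjustment over 8069 peaks. Over the window peaks the fitted fold change had a slope of 0.823 on the difference of log2 reads, so it is the smaller measure, and its sign differed in 7 uncalled peaks. Scripts (Python 3.11.15, pandas 2.3.3, numpy 2.4.6, matplotlib 3.10.9) were tested on simulated data. The planned promoter motifs and all sequences were not analysed here.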

Additional observations from a re-analysis of the deposited data

How the results depend on the processing

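Of 52 values recomputed under other choices, 43 stayed within a set range of the main value. For a count the range was 1.5-fold either way. For a median or a share it was an interval that takes peaks as independent, which they are not. Some choices change few peaks, so the 43 are a description and not a test. The untested median difference between temperatures was also below 0 at gene ends alone (-0.012). With the lowest quartile of reads left out, 12 window peaks (7.27%, reference 7.95%) were higher at 25 °C and the median log2 difference between temperatures was -0.028 (reference -0.052). With windows narrowed by 0.5 Mb, 12 of 210 peaks (5.71%, reference 10.2%) were higher at 11 °C. With at least 1.5-fold required, 30 were higher in the warm (11.2%, reference 4.64%) and 10 in the cold (3.72%, reference 3.06%). The median log2 reads were 7.52 at gene ends alone (reference 7.49) and 5.96 away from them (reference 7.10), where the median difference was 0.087 (reference -0.004). With gene ends taken within 1000 bp, 60.6% of window peaks were at one (reference 69.2%). Leaving out each window in turn gave 33 to 44 peaks higher at 25 °C and 14 to 17 higher at 11 °C. Leaving out peaks under 10 reads, chosen after seeing the data, could not change the calls, since none of those peaks was called; the median log2 reads were then 7.21 (reference 7.37). No paired analysis was possible because the table has no value per library, and for the same reason no replicate could be left out. DNA copy number was not analysed here, and depth per library is unknown.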
